A study of Homo sapiens with 4 samples.

Results

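The proteasome is the protease complex that degrades proteins marked with ubiquitin, and its subunits are encoded by the PSMA to PSMG genes. The family was taken as every protein-coding gene whose symbol begins PSMA, PSMB, PSMC, PSMD, PSME, PSMF or PSMG. Pseudogenes and antisense RNAs were left out. There were 50 such genes among the 63677 genes of the count files. Of these, 48 are subunits, activators, an inhibitor or assembly chaperones of the proteasome. The other two, PSMC3IP and PSME3IP1, carry the prefix because their products bind a proteasome protein.

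Expression was measured by sequencing of ribosome-depleted total RNA in H929, an established human multiple myeloma line of malignant plasma cells. The cells had been transduced with a non-silencing short hairpin RNA (shRNA; 2 libraries) or with an shRNA against ILF2 (2 libraries). All 4 libraries thus come from one cell line that carries a hairpin. The replicates are described as independent, without saying whether cultures or transductions were repeated, and the labels do not name the ILF2 hairpin of each library. Each p-value thus reflects no more than the spread among these libraries, which may be technical.

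In the proteasome, a barrel-shaped 20S core of stacked rings holds the protein-cutting sites, and its gate is formed by the outer alpha rings. A 19S regulatory cap binds ubiquitin, unfolds the substrate with a ring of ATPases and feeds it into the core. In antigen-presenting and lymphoid cells, and after interferon, the catalytic beta subunits PSMB5, PSMB6 and PSMB7 can be replaced by PSMB8, PSMB9 and PSMB10, which gives the immunoproteasome. Plasma cells secrete large amounts of antibody and depend strongly on protein degradation, and proteasome inhibitors that bind PSMB5 are used to treat myeloma.

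The libraries held 63459322 to 72977082 counted fragments. Levels are given as CPM, the gene's count scaled to library depth after TMM normalization. ILF2 itself fell from 725 ± 11.6 CPM in the non-silencing to 111 ± 5.13 CPM with the ILF2 hairpin (SD, n = 2), a change of -2.71 on the log2 scale (SE 0.07). The 8 plasma cell and myeloma markers examined were all above 1 CPM in every library. Their sum was 12330 and 12635 CPM with the non-silencing hairpin and 14579 and 14690 CPM with the ILF2 hairpin. JCHAIN made up most of that gap, with 5594 and 5937 CPM against 7682 and 7594 CPM, whereas SDC1 had 1125 and 1040 CPM against 881 and 954 CPM. The part of these marker differences in the results below was not tested. Markers of B cells, myeloid, stromal and erythroid cells summed to at most 0.763 CPM in any library. Of the 3 T cell markers, CD3D and CD2 were at or below 0.027 CPM, whereas CD3E had 8.22 and 7.49 CPM with the non-silencing hairpin and 16.1 and 17.03 CPM with the ILF2 hairpin. Mitochondrial transcripts took 0.351% and 0.307% of fragments with the non-silencing hairpin and 0.516% and 0.463% with the ILF2 hairpin. Leaving them and abundant small RNAs out changed no call among the 48 tested members.

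Differences between the groups were small in the proteasome genes. Of the 50 members, 48 passed the low-count filter and were tested; 3 were called lower and 0 higher with ILF2 shRNA (quasi-likelihood test of edgeR, with an adjusted p under 0.05 over the 19142 genes tested). Among all tested genes, 20.3% were called, 10.2% higher and 10.1% lower. Among tested genes within the range of average levels that the members span, 25.2% were called. At an unadjusted p under 0.05, 1 member was higher and 8 were lower, where 15.5% and 15.4% of all tested genes were. DESeq2 called 0 members higher and 2 lower, against 8.18% of the genes it tested called lower. The groups did not overlap in 21 of the 48 members, against 56.5% of all tested genes.

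The members' log2 fold changes ran from -0.25 to 0.16, with 33 below and 15 above zero and a median of -0.05, where the median of all tested genes was -0.0015. The median absolute log2 fold change was 0.056 among the members, 0.168 among all tested genes and 0.115 among tested genes of the members' level range. That set holds every tested gene between the lowest and highest member (average log2 CPM 2.42 to 8.92). It was not matched to how the members' levels are spread within the range. Among the members 93.8% lay within 0.2 of zero on the log2 scale, against 56.1% of all tested genes. The 95% intervals of all 48 tested members lay between -0.43 and 0.31, and 30 of them lay wholly within 0.25 of zero. In sum, the 50 genes took 5126 and 5188 CPM with the non-silencing hairpin and 4949 and 5041 CPM with the ILF2 hairpin. Both sums with ILF2 shRNA were below both of the controls.

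**Figure D1:**
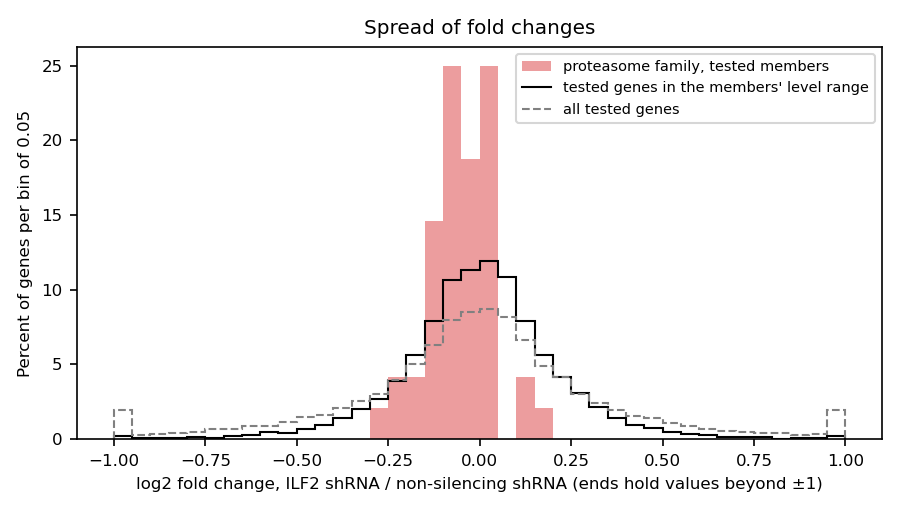
Histogram of log2 fold changes (ILF2 shRNA over non-silencing shRNA, horizontal axis) as the percent of genes per bin of 0.05 (vertical axis) for the 48 tested proteasome family genes (filled), the tested genes in the members' level range (solid line) and all 19142 tested genes (dashed line). The members lie between -0.25 and 0.16, while both other distributions reach well beyond them on either side.

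The 3 called members were PSMB8, PSMC3 and PSMC3IP. Each call ended when either non-silencing library was left out, fits in which a smaller share of all tested genes was called. The log2 fold changes of these genes then stayed between -0.27 and -0.20. PSMB8 encodes the chymotrypsin-like catalytic subunit of the immunoproteasome. It was at 48.9 and 50.6 CPM with the non-silencing hairpin and at 41.9 and 43.1 CPM with the ILF2 hairpin. Both ILF2 shRNA libraries lay below both controls, and the log2 fold change was -0.23 (SE 0.07; adjusted p = 0.0215 by edgeR), or 85.6% of the control level. The call ended without non-silencing replicate 1 (adjusted p = 0.121), non-silencing replicate 2 (adjusted p = 0.269) or ILF2 shRNA replicate 1 (adjusted p = 0.0759), while the log2 fold change stayed between -0.25 and -0.20.

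PSMC3 encodes one of the ATPases at the base of the 19S cap. It had 167 and 170 CPM with the non-silencing hairpin and 140.5 and 148 CPM with the ILF2 hairpin. The groups did not overlap, with a log2 fold change of -0.22 (SE 0.07; adjusted p = 0.0136 by edgeR), or 85.9% of the control level. This call ended without non-silencing replicate 1 (adjusted p = 0.146), non-silencing replicate 2 (adjusted p = 0.223) or ILF2 shRNA replicate 1 (adjusted p = 0.0752).

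PSMC3IP, the gene of the largest fold change in the family, is not a proteasome subunit. Its product, also known as HOP2, acts with recombinases in homologous recombination. It was at 16.9 and 17.2 CPM with the non-silencing hairpin and at 15.2 and 13.5 CPM with the ILF2 hairpin. Both ILF2 shRNA libraries were lower, with a log2 fold change of -0.25 (SE 0.09; adjusted p = 0.0325 by edgeR). It was not called by DESeq2 (adjusted p = 0.0917), nor without non-silencing replicate 1 (adjusted p = 0.137), non-silencing replicate 2 (adjusted p = 0.205) or ILF2 shRNA replicate 2 (adjusted p = 0.299). PSME3IP1, which binds the activator PSME3, had a log2 fold change of -0.02. Without these genes, 2 of 46 tested members were called lower and 0 higher, and the median was again -0.05.

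**Figure D2:**
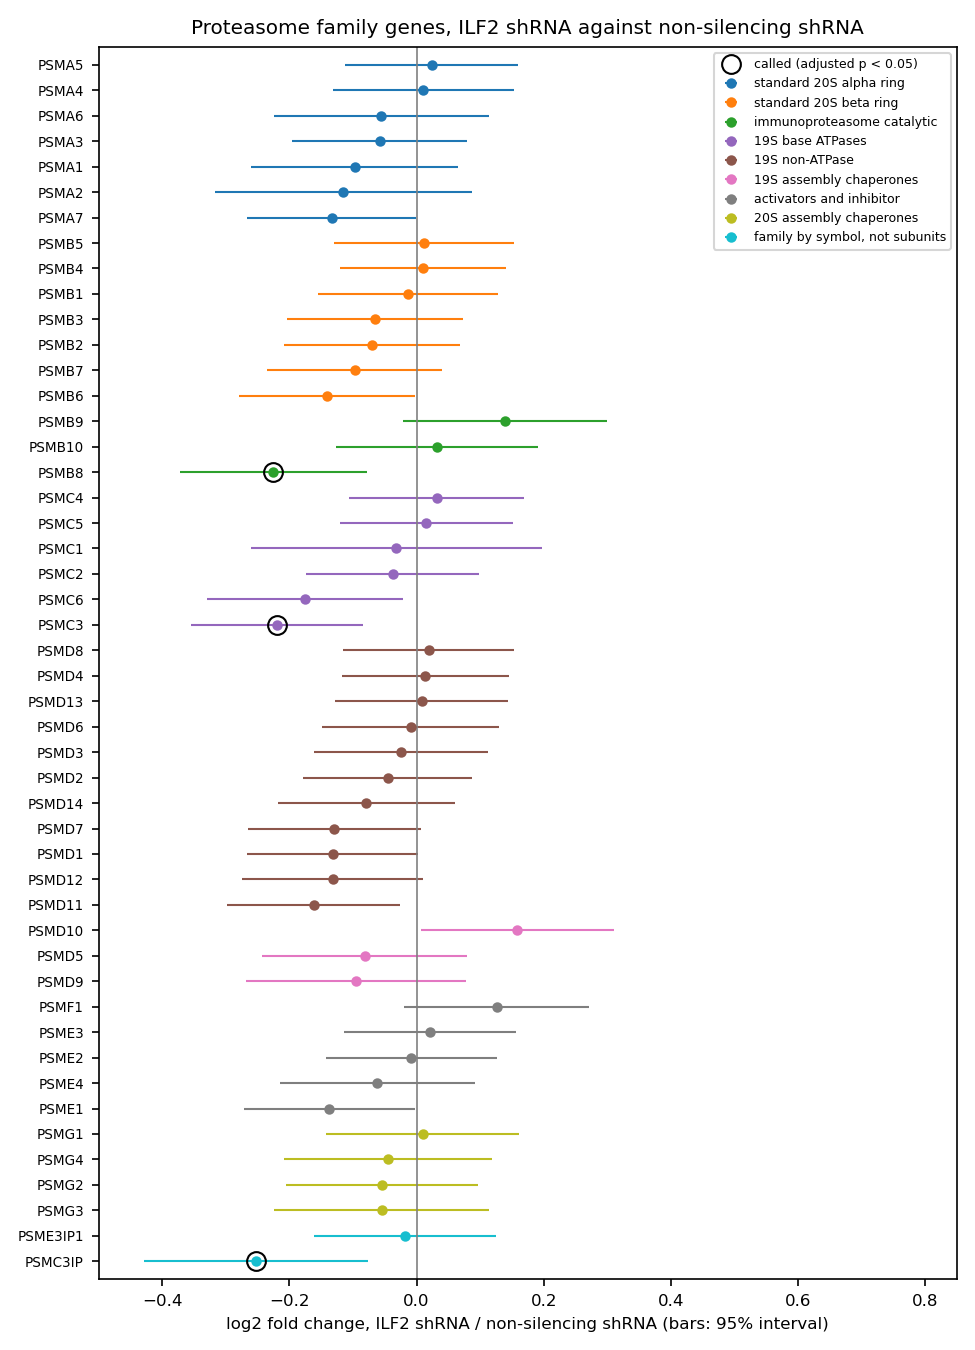
Log2 fold change (ILF2 shRNA over non-silencing shRNA, horizontal axis) of each of the 48 tested members (vertical axis), coloured by part of the complex, with 95% intervals as bars and the 3 called genes circled. The fold changes run from -0.25 to 0.16, and PSMB8, PSMC3 and PSMC3IP are the circled genes, all on the lower side.

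Because PSMB8 was called and its neighbour PSMB9 was not, the sequence before the start sites of the immunoproteasome genes is given beside that of PSMC3. By the annotated exons used for counting, PSMB8 and PSMB9 overlap at their ends on opposite strands in the major histocompatibility complex. They span chromosome 6, 32808494 to 32812480 on the minus strand and 32811913 to 32827362 on the plus strand in GRCh37. By these spans, the overlap is at the end where the counted exons of PSMB9 begin on its strand. The PSMB9 window below lies apart from the PSMB8 windows, so it precedes another annotated start of PSMB9, further from PSMB8. PSMB10 lies apart, on chromosome 16, 67968405 to 67970990, and PSMC3 on chromosome 11, 47440320 to 47447993, both on the minus strand. Each sequence below is the 250 bases before an annotated start, 5′ to 3′, from RefSeq on GRCh38.p14: chr6:32844680-32844929 and chr6:32844048-32844297 (minus strand) before the pair of PSMB8 starts, chr6:32853942-32854191 (plus) before PSMB9, chr16:67936851-67937100 (minus) before PSMB10 and chr11:47426440-47426689 (minus) before PSMC3. Capitals mark matches on either strand to 4 motifs: TGACNNNGC, the core of the antioxidant response element bound by NFE2L1; TTCNNNGAA, the interferon-gamma activated site; the interferon response element core; and CCAAT, the CCAAT box.
PSMB8 upstream start: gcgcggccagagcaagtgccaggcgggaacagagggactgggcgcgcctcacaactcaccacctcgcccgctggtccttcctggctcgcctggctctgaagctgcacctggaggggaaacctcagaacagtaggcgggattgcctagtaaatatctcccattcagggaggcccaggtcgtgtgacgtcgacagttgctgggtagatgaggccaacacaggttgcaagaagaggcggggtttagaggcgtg
PSMB8 downstream start: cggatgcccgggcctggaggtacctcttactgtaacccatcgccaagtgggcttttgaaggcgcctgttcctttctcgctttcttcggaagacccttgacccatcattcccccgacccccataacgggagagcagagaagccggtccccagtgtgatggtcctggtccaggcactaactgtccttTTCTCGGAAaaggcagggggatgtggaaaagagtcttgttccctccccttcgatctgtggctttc
PSMB9: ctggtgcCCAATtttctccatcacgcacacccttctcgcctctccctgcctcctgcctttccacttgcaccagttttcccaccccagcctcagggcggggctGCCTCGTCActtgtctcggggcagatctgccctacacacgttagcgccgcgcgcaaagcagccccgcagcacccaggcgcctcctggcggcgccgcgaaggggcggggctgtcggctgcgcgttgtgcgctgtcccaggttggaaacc
PSMB10: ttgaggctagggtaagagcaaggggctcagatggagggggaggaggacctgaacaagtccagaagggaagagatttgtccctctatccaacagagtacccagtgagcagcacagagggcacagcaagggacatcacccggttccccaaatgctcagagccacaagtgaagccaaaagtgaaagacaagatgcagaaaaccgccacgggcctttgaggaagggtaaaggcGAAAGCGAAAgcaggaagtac
PSMC3: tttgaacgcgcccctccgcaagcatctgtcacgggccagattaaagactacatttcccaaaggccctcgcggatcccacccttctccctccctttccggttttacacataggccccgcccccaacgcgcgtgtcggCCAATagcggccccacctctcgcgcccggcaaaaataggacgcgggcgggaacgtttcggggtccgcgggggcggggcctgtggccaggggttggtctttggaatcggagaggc
The second PSMB8 window holds a TTCNNNGAA match whose first base is at -65 from the start. The PSMB9 window holds a TGACNNNGC match on the other strand at -148 and a CCAAT at -243. PSMB10 holds the interferon response element core at -21, and PSMC3 a CCAAT on the printed strand at -114. No match overlapped one of another motif in these windows, and a match is only a description of the letters.

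Promoter windows were found for 44 of the 50 members, in 55 windows. TGACNNNGC was in 23.6% of the members' windows and in 10.9% of all 35116 windows of that length. The share was 12.7% against 6.57% for TTCNNNGAA, 9.09% against 3.02% for the interferon response element core, and 41.8% against 32.0% for CCAAT. The GC box (GGGCGG), not in capitals above, was in 63.6% against 42.6%. The share of every motif searched was thus higher in the members' windows. The set of all windows was not limited to expressed genes, and 10 members had more than 1 window, some of them overlapping. The sets were not matched, and whether they differ was not tested. As a description, the median log2 difference of tested members with and without each motif was -0.054 (13 genes) and -0.045 (29) for TGACNNNGC, and -0.0058 (6) and -0.05 (36) for TTCNNNGAA. It was 0.0095 (5) and -0.055 (37) for the interferon response element core, -0.014 (20) and -0.058 (22) for CCAAT, and -0.058 (28) and 0.0001 (14) for the GC box.

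The remaining immunoproteasome subunits were not called. PSMB9, the caspase-like site's replacement, had 25.8 and 24.8 CPM with the non-silencing hairpin and 26.7 and 29.0 CPM with the ILF2 hairpin. Both ILF2 shRNA libraries were above both controls by a small margin, with a log2 fold change of 0.14 (95% interval -0.02 to 0.30; adjusted p = 0.236 by edgeR). PSMB10, the replacement of the trypsin-like site, had 30.8 and 27.6 CPM against 30.0 and 29.8 CPM, with overlapping groups (log2 fold change 0.03, 95% interval -0.13 to 0.19). About 34.8% of the exon length of PSMB10 is shared with another annotated gene on the same strand, and 5.66% of that of PSMB9 with PSMB8-AS1.

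None of the 3 standard catalytic subunits was called (edgeR; at an unadjusted p under 0.05, 1 was lower). PSMB5, the chymotrypsin-like subunit and main target of the myeloma drug bortezomib, had 74.1 and 72.7 CPM with the non-silencing hairpin and 71.1 and 77.0 CPM with the ILF2 hairpin. The controls lay between both ILF2 shRNA libraries, and the log2 fold change was 0.01 (95% interval -0.13 to 0.15). PSMB6, the caspase-like subunit, had 122 and 119 CPM against 104.5 and 114 CPM, a log2 fold change of -0.14 (95% interval -0.28 to -0.0031; adjusted p = 0.151 by edgeR). PSMB7, the trypsin-like subunit, had 119 and 120.5 CPM against 108 and 116 CPM, a log2 fold change of -0.10 (95% interval -0.23 to 0.04). In PSMB6 and PSMB7 the groups did not overlap.

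**Figure D3:**
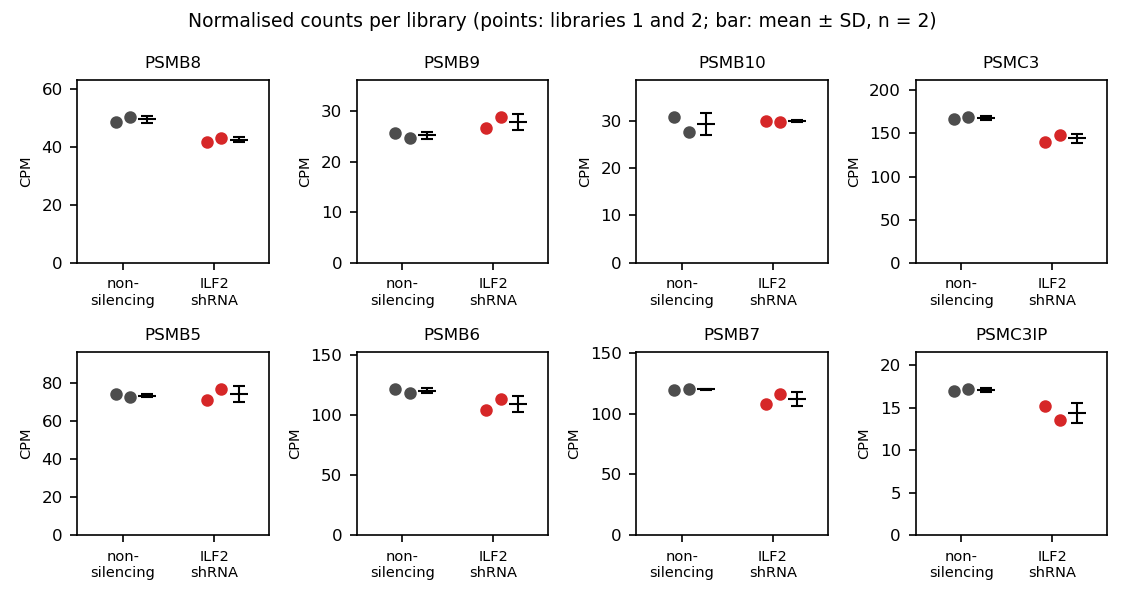
CPM per library (vertical axis, from 0) for the 3 immunoproteasome and 3 standard catalytic subunits, PSMC3 and PSMC3IP, in the non-silencing (grey) and ILF2 shRNA (red) libraries, with the mean ± SD (n = 2) as bars. PSMB8, PSMC3 and PSMC3IP lie lower with ILF2 shRNA, PSMB9 slightly higher, and PSMB5 spans the controls.

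To set the forms of the core against each other, the CPM of PSMB8, PSMB9 and PSMB10 per kilobase of exon were summed and divided by the sum for PSMB5, PSMB6 and PSMB7. The ratio was 0.269 and 0.266 with the non-silencing hairpin and 0.279 and 0.264 with the ILF2 hairpin. The groups overlapped, and the exact two-sided permutation test gave p = 1, where the smallest p that 2 against 2 libraries can give is 0.333. The overlap depended on the length used. Per length of each gene's canonical transcript, the single transcript that the annotation marks as representative, the ratio was 0.2949 and 0.2901 against 0.3092 and 0.2950. There the groups were only just apart (exact permutation p = 0.333). By pairs, PSMB8 to PSMB5 was 0.580 and 0.612 with the non-silencing hairpin and 0.519 and 0.493 with the ILF2 hairpin. PSMB9 to PSMB6 was 0.0977 and 0.0964 against 0.118 and 0.118, and PSMB10 to PSMB7 was 0.2999 and 0.266 against 0.322 and 0.298. The first pair was lower and the second higher in both ILF2 shRNA libraries (exact permutation p = 0.333 for each), while the third overlapped. The ratio of PSMB8 to its neighbour PSMB9 was 2.90 and 3.13 with the non-silencing hairpin and 2.40 and 2.28 with the ILF2 hairpin, again without overlap (exact permutation p = 0.333). Its size depended on the length used: per canonical transcript length it was 1.71 and 1.85 against 1.42 and 1.35.

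In the alpha ring, which gates the core, 0 of 7 genes were called, with log2 fold changes from -0.13 to 0.02. PSMA7 was the most abundant per exon length, with 195 and 195 CPM with the non-silencing hairpin and 178.5 and 176 CPM with the ILF2 hairpin. Its groups did not overlap (log2 fold change -0.13, 95% interval -0.27 to -0.0004; adjusted p = 0.16 by edgeR). PSMA2 had -0.12 on the log2 scale, but -0.32 (adjusted p = 0.0298 by edgeR) without ILF2 shRNA replicate 1 and 0.07 without ILF2 shRNA replicate 2. Summed over the ring, the level was 576.3 and 598 CPM against 575.7 and 554.5 CPM, so both sums with ILF2 shRNA lay below both controls, the nearest by less than 1 CPM.

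In the beta ring 0 of 7 standard genes were called, with log2 fold changes from -0.14 to 0.01. The most abundant gene of the whole family per exon length was PSMB4, a structural beta subunit, with 482 and 481 CPM with the non-silencing hairpin and 475 and 494 CPM with the ILF2 hairpin. Its interval was among the narrowest of the family (log2 fold change 0.01, 95% interval -0.12 to 0.14). PSMB4 lies on chromosome 1, 151372010 to 151374420, which is 2.26 Mb from ILF2, and PSMD4, which encodes a ubiquitin receptor of the 19S cap, lies 2.39 Mb from ILF2. PSMD4 had 323 and 333 CPM against 324 and 338 CPM, with a log2 fold change of 0.01 (95% interval -0.12 to 0.15). Neither of these neighbours of the targeted gene thus differed detectably between the groups.

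The tissue-specific core subunits were at or near zero. PSMB11, the beta subunit of thymic epithelium, had 0 fragments in every library, where 3 fragments would be 0.0405 to 0.0471 CPM. PSMA8, a testis subunit, had 1 fragment in non-silencing replicate 2 and 0 in the rest. These are the members that did not pass the filter.

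Among the 6 ATPases of the 19S base, PSMC3 was called lower, and the other log2 fold changes ran from -0.18 for PSMC6 to 0.03 for PSMC4. PSMC6 had 46.5 and 49.0 CPM with the non-silencing hairpin and 45.9 and 38.8 CPM with the ILF2 hairpin, so its difference lay mostly in ILF2 shRNA replicate 2 (adjusted p = 0.103 by edgeR). Without ILF2 shRNA replicate 1 it was called, at -0.30 (adjusted p = 0.0046), and without replicate 2 it had -0.06. Summed over the base, the level was 609 and 615 CPM against 574 and 594 CPM. The non-ATPase subunits of the cap numbered 11, of which 0 were called, with log2 fold changes from -0.16 to 0.02. PSMD11, a subunit of the lid, had the lowest value (adjusted p = 0.0855 by edgeR), with 121 and 124 CPM with the non-silencing hairpin and 108.5 and 110 CPM with the ILF2 hairpin. PSMD14, the deubiquitinating enzyme of the lid, stood at -0.08 on the log2 scale, and the large scaffold subunits PSMD1 and PSMD2 had -0.13 and -0.05. PSMD3, PSMD6, PSMD8 and PSMD13 were all between -0.02 and 0.02, and PSMD7 and PSMD12 were both at -0.13.

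The chaperones that assemble the base gave the highest single fold change of the family. PSMD10, also known as gankyrin, had 34.3 and 34.4 CPM with the non-silencing hairpin and 38.3 and 38.5 CPM with the ILF2 hairpin. Both ILF2 shRNA libraries were higher, but it was not called (log2 fold change 0.16, 95% interval 0.0073 to 0.31; adjusted p = 0.139 by edgeR). PSMD5 and PSMD9 had log2 fold changes of -0.08 and -0.10. Of the 4 chaperones of the core, PSMG1, PSMG2, PSMG3 and PSMG4, 0 were called, and their log2 fold changes ran from -0.05 to 0.01. PSMG1, the most abundant of them per exon length, had 38.2 and 42.6 CPM against 41.1 and 40.2 CPM.

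Of the 4 activators and the inhibitor, 0 were called. PSME1 and PSME2, which form the activator induced by interferon, had log2 fold changes of -0.14 and -0.01. PSME1, the most abundant of these genes per exon length, had 168 and 168 CPM with the non-silencing hairpin and 154 and 152 CPM with the ILF2 hairpin (adjusted p = 0.151 by edgeR), without overlap. PSME3, the nuclear activator, had a log2 fold change of 0.02, and PSME4, the large single-chain activator, had -0.06. PSMF1, which encodes the inhibitor PI31, had 48.0 and 47.2 CPM against 51.7 and 52.2 CPM (log2 fold change 0.13, 95% interval -0.02 to 0.27; adjusted p = 0.237 by edgeR).

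Levels per exon length differed far more between members than between the groups. They are counts over the summed length of all annotated exons, so a gene with many rarely used exons reads low. In the mean of 4 libraries they ran from 2.13 to 106 CPM per kb in the alpha ring, from 29.2 to 224 CPM per kb in the beta ring and from 1.58 to 69.6 CPM per kb in the base, sets whose members the complex holds in equal numbers. The immunoproteasome subunits had 22.99 CPM per kb for PSMB8, 15.9 for PSMB10 and 8.65 for PSMB9, below the 41.8 of PSMB5, 53.9 of PSMB7 and 80.9 of PSMB6. The order of the 6 catalytic genes was the same in both groups.

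**Figure D4:**
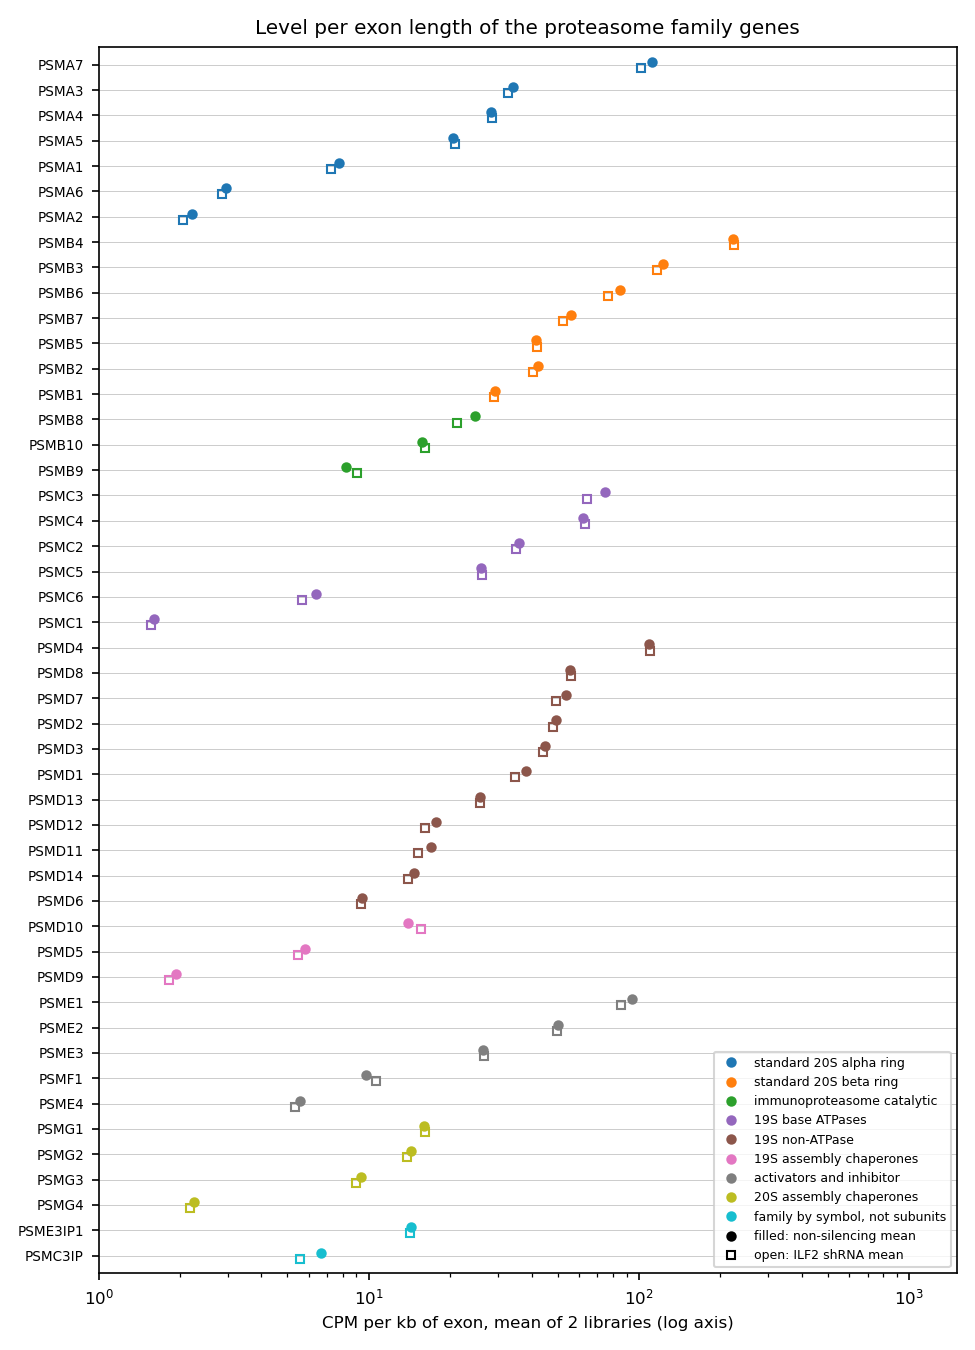
Level of each tested member in CPM per kilobase of exon (horizontal log axis), by gene and part of the complex (vertical axis), as the mean of 2 non-silencing libraries (filled) and 2 ILF2 shRNA libraries (open). Members span 1.58 to 224 CPM per kb, and the filled and open symbols of a gene nearly coincide.

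Some of the lowest levels belong to genes with near-identical copies. PSMC1, an ATPase of the base, had 383 and 402 fragments with the non-silencing hairpin and 350 and 348 with the ILF2 hairpin, whereas its processed pseudogene PSMC1P1 had 4698 and 5155 against 4035 and 4019. Of all fragments given to PSMC1 and its 13 annotated pseudogenes, 92.4% were given to the pseudogenes. Since fragments from the gene and such copies may be confused, the level of PSMC1 is uncertain. Its log2 fold change was -0.03 (SE 0.11), and -0.14 (adjusted p = 0.165) with the pseudogenes added. The pseudogenes took 48.4% for PSMA6 and 15.7% for PSME2, and adding them left the log2 fold changes at -0.06 and -0.01. PSMA1 and PSMA2 share 32.9% and 14.7% of their exon length with other annotated genes on the same strand, so some of their fragments may not have been counted.

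The members' differences between replicates and between groups were of similar size, but they are unlike measures. A replicate difference sets single libraries against each other, whereas the group difference sets 2 libraries against 2, so the sizes are not directly comparable. The median absolute log2 difference was 0.0429 between the non-silencing libraries, compared with 0.0713 between those with ILF2 shRNA, against 0.0564 between the groups. These replicate differences followed the GC content of the exons, which ran from 36.2% to 61.9%. Across the 48 tested members, which share libraries and are not independent, Pearson's r with GC content was 0.55 (Spearman's rho 0.55) for ILF2 shRNA replicate 2 minus replicate 1. It was -0.46 (rho -0.50) for non-silencing replicate 2 minus replicate 1, and 0.014 (rho 0.08) for the group difference. ILF2 shRNA replicate 2 minus replicate 1 was lowest in PSMA2, PSME4 and PSMC6, at -0.39, -0.26 and -0.24 on the log2 scale, and their GC contents were 40.1%, 39.7% and 38.3%. Other members with a GC content of 36.2% to 40.2% went both ways. PSMA5, PSMA6, PSMC2 and PSMD10 lay between 0.0087 and 0.06. PSMD12, PSMD14, PSMA3 and PSMD5 had -0.17, -0.13, -0.06 and -0.05.

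With smooth trends on GC content and exon length removed from each library, 12 members were called lower and 1 higher, against 15.3% and 15.0% of all tested genes. The 12 were PSMB8, PSMC3 and PSMC3IP, with PSMA7, PSMB6, PSMB7, PSMC6, PSMD1, PSMD7, PSMD11, PSMD12 and PSME1, and the higher one was PSMD10. Their log2 fold changes stayed small, from -0.29 for PSMC3IP to 0.15 for PSMD10, and no member moved by more than 0.0403 under this correction. The number of calls thus depended on the correction far more than the sizes did.

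**Figure D5:**
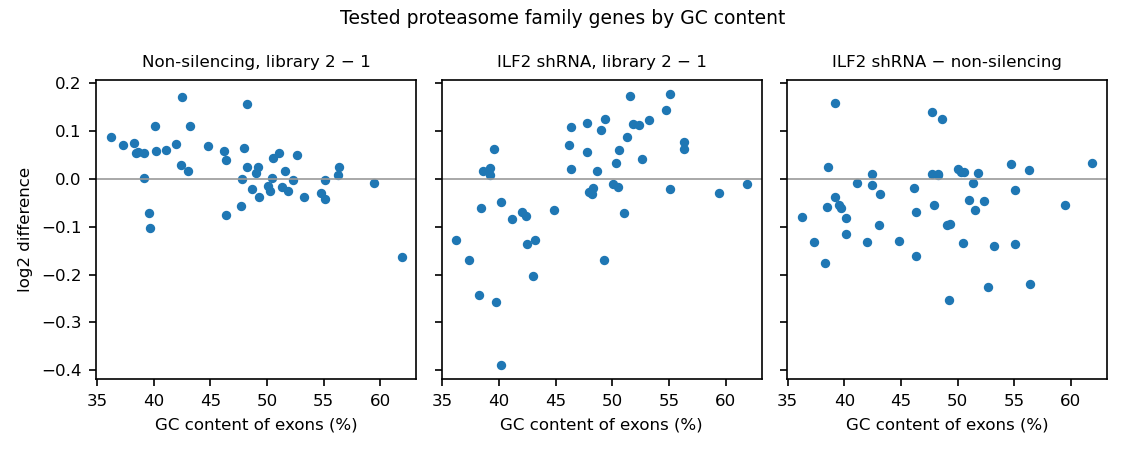
Log2 difference of each of the 48 tested members (vertical axis) against the GC content of its exons in percent (horizontal axis), for the non-silencing pair of libraries, the ILF2 shRNA pair and the groups. The differences fall with GC content in the first panel (r = -0.46), rise in the second (r = 0.55) and show no trend in the third (r = 0.014).

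Chromosomes 14 and 17 each hold 8 of the members. The tested members on these chromosomes had median log2 fold changes of -0.06 and -0.10, where all tested genes there had -0.0038 and -0.01. Chromosome 5 holds no member; the median over its 900 tested genes was 0.148.

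Among 14 further genes for assembly, activation and transport of the proteasome, 2 were called lower and 0 higher, with a median log2 fold change of -0.02. Among all tested genes, 10.1% were called lower and 10.2% higher. With unadjusted p-values under 0.05 from edgeR, 0 of the 14 were higher and 4 lower, against 15.5% and 15.4% of all tested genes. PITHD1, which encodes a proteasome-associated protein, had 24.4 and 24.1 CPM with the non-silencing hairpin and 18.8 and 18.8 CPM with the ILF2 hairpin. That is a log2 fold change of -0.37 (SE 0.08; adjusted p = 0.00053 by edgeR). IPO9, an importin that carries proteasomes into the nucleus, had a log2 fold change of -0.19 (adjusted p = 0.0469 by edgeR), a call lost without any one of the libraries. The core maturation factor POMP, the cap subunits ADRM1 and SEM1 and the deubiquitinases USP14 and UCHL5 were not called, and had -0.02, -0.14, -0.02, 0.05 and -0.0068. Without ILF2 shRNA replicate 2, ADRM1 was called lower (-0.20, adjusted p = 0.0459 by edgeR).

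Among 22 genes for ubiquitin, its activation and the delivery of substrates, 2 were called higher and 0 lower, with a median of 0.0090. For comparison, edgeR called 10.2% of all tested genes higher and 10.1% lower. Of the 22, 4 rose and 1 fell with an edgeR p below 0.05 before adjustment. The matching shares of all tested genes were 15.5% and 15.4%. The ubiquitin-binding autophagy receptor gene SQSTM1 had 255 and 249 CPM with the non-silencing hairpin and 300.5 and 314 CPM with the ILF2 hairpin (log2 fold change 0.28, SE 0.07; adjusted p = 0.00085 by edgeR). FAF2, an adaptor that brings the unfoldase VCP to the endoplasmic reticulum, rose by 0.22 (adjusted p = 0.0143 by edgeR). Both lie on chromosome 5. SQSTM1 was no longer called without non-silencing replicate 2 (adjusted p = 0.0918), and FAF2 without non-silencing replicate 1 (adjusted p = 0.227), replicate 2 (adjusted p = 0.157) or ILF2 shRNA replicate 2 (adjusted p = 0.0709). The ubiquitin genes UBB and RPS27A were not called and had log2 fold changes of -0.10 and 0.0052. Without ILF2 shRNA replicate 2, UBB was called lower (-0.19, adjusted p = 0.0453 by edgeR).

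Among 19 genes that control proteasome gene transcription, 4 were called higher and 1 lower, with a median of 0.02. The shares called among all tested genes were 10.2% higher and 10.1% lower. NFE2L1 encodes the transcription factor that raises proteasome genes when degradation is impaired, and had 114 and 110 CPM with the non-silencing hairpin and 125.5 and 134 CPM with the ILF2 hairpin (log2 fold change 0.21, SE 0.07; adjusted p = 0.0181 by edgeR). NGLY1, whose product removes sugars from the NFE2L1 protein so that it can act, went from 127 and 133 to 198 and 186 CPM. Its log2 fold change of 0.56 (SE 0.07; adjusted p = 2.7e-09 by edgeR) was beyond the range of every proteasome gene. SEL1L, a subunit of the ubiquitin ligase complex of the endoplasmic reticulum, rose by 0.25 (adjusted p = 0.0036 by edgeR). The fourth riser, FOXO4 (0.31; adjusted p = 0.026 by edgeR), is named after its value was seen, because the count is small. FOXO4 was not called by DESeq2 (adjusted p = 0.123), nor without non-silencing replicate 1 (adjusted p = 0.103), non-silencing replicate 2 (adjusted p = 0.1985) or ILF2 shRNA replicate 2 (adjusted p = 0.1445). MAFK, a partner of NFE2L1 on DNA, had a log2 fold change of -0.32 (adjusted p = 0.0156 by edgeR). DDI2, the protease that activates NFE2L1, is in this list and in the ubiquitin list and had 0.02. NFE2L1 was no longer called without non-silencing replicate 1 (adjusted p = 0.145), non-silencing replicate 2 (adjusted p = 0.29) or ILF2 shRNA replicate 2 (adjusted p = 0.137). SEL1L was not called without non-silencing replicate 1 (adjusted p = 0.245) or replicate 2 (adjusted p = 0.0658). MAFK was not called without non-silencing replicate 1 (adjusted p = 0.241), without ILF2 shRNA replicate 2 (adjusted p = 0.126) or by DESeq2 (adjusted p = 0.0818). NGLY1 was called under every alternative in which it was refitted.

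Of 17 genes that process and present the peptides made by proteasomes, 7 were called higher and 0 lower, with a median log2 fold change of 0.15. Of all tested genes, 10.2% were called higher and 10.1% lower. By edgeR at an unadjusted p under 0.05, 11 of the 17 were higher and 0 lower, against 15.5% and 15.4% of all tested genes. ERAP2 and ERAP1 encode the peptidases that trim peptides in the endoplasmic reticulum. ERAP2 had 71.3 and 77.99 CPM with the non-silencing hairpin and 108 and 103 CPM with the ILF2 hairpin (log2 fold change 0.50, SE 0.07; adjusted p = 1.1e-07 by edgeR), and ERAP1 rose by 0.30 (adjusted p = 0.00048 by edgeR). The class I light chain gene B2M had 783 and 792 CPM against 947 and 985 CPM (log2 fold change 0.29, SE 0.07; adjusted p = 0.00045 by edgeR), and HLA-B rose by 0.25 (adjusted p = 0.0044 by edgeR). HLA-B is highly similar to the other class I genes, so its fragments may be partly confused with theirs. TAP1 and TAP2, the peptide transporter genes beside PSMB8 and PSMB9, were not called and had 0.10 and -0.09. Of the 7 calls, 4 were of genes on chromosome 5; among the 13 genes elsewhere 3 were called, with a median of 0.145. Without non-silencing replicate 1 or replicate 2, fewer genes of this list were called, as were fewer of all tested genes. B2M was then at 0.29 and 0.30 on the log2 scale and HLA-B at 0.30 and 0.21, and neither was called. ERAP1 had adjusted p = 0.0709 without non-silencing replicate 1. Whether this list and the proteasome genes differ was not tested.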

How the data were processed

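Total RNA of 4 H929 libraries was counted by the authors as fragments per gene, and the deposited values are raw counts. Per the file headers, featureCounts of Subread 1.4.6-p2 counted paired fragments on the reverse strand over exons of the Ensembl GRCh37 annotation. STAR 2.3.0 and SAMtools 0.1.19 stand in the submitters' processing notes, while the series' design text names another aligner. The deposited length column (other values: the exon length in bases per gene, per the file headers) gave levels per kilobase.

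Counts were tested with edgeR 4.0.16 (R 4.3.3; TMM scaling, filterByExpr with a minimum count of 10, robust quasi-likelihood fit on the group alone), with p-values adjusted by Benjamini and Hochberg over 19142 genes and called under 0.05. Intervals are 95% from the same fit, and floors for a count of 0 are 3 fragments. Both cover counting error or the spread of these libraries only. The biological coefficient of variation was 5.38%. On simulated data for this comparison (18785 genes), 86% of planted log2 changes of size 0.5 were called, as were 100% of those of size 1, 1.5 and 2. Of the 204 calls, 11 were of genes without a planted change. All genes were simulated with the same dispersion. No planted change was as small as those of the members, the largest of which was -0.25, so the simulation does not tell how often such changes are called.

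Gene symbols came from a list of gene names by Ensembl identifier for 55665 genes. A further 382 were matched by position in GENCODE on GRCh37, and 7630 not at all. Gene types came from GENCODE, and GC content from the GRCh37 genome sequence over the exons used for counting. Among rows with the family prefixes, 51 pseudogenes and other non-coding rows were left out. Alternatives used DESeq2 1.42.0, limma 3.58.1, other scalings and filters, and GC and length trends from mgcv 1.9.3.

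The members and lists were chosen with earlier results of these data known. Genes given in full were the called members, the catalytic subunits, the most abundant member per exon length of a group with no call, and up to 4 called genes of each other list with the smallest adjusted p. Other genes with values were named after these were seen. Some genes of these lists are not reported here by name.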

Additional observations from a re-analysis of the deposited data

How the results depend on the processing

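With 2 libraries a group, and the lone library of a reduced group assumed to vary like the others, counts of calls moved readily. With any library left out, a smaller share of all tested genes was called than in the main fit, so the counts below also carry that loss. Leaving out a library shifted single members by up to 0.203 on the log2 scale (PSMA2), against at most 0.0403 under any other alternative but the summing of pseudogenes (0.113). Leaving out each library in turn gave 0 to 4 members lower and a family median log2 fold change of -0.0665 to -0.0393. It gave 1 to 2 calls lower for assembly and activation factors, 0 to 4 higher and 0 to 1 lower for ubiquitin and shuttle genes, 1 to 4 higher and 0 to 2 lower for transcriptional control, and 1 to 9 higher for antigen processing.

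The replicate numbers are not stated to pair the libraries, and deviations of same-numbered libraries correlated at -0.0247 over all tested genes and at -0.491 over abundant ones. With the replicate block, which called 13.5% of all tested genes, 0 members were lower, with 1 assembly factor lower, 1 ubiquitin gene higher, 2 transcriptional control genes higher and 0 lower, and 3 antigen processing genes higher. With the block crossed, chosen after seeing the data, 29.9% of all tested genes were called (2871 higher and 2857 lower of 19142). There 2 members were higher and 11 lower, with 5 assembly factors lower, 5 ubiquitin genes higher and 2 lower, 5 transcriptional control genes higher and 2 lower and 13 antigen processing genes higher.

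With GC content and exon length corrected, 1 member was higher and 12 were lower, with 4 assembly factors lower, 4 ubiquitin genes higher and 3 lower, 6 transcriptional control genes higher and 2 lower and 13 antigen processing genes higher. DESeq2 called 1 ubiquitin gene lower and 0 transcriptional control genes lower, and the filter of 1 CPM in 2 libraries called 1 ubiquitin gene lower. Without chromosome 5, also chosen after seeing the data, 3 antigen processing genes were higher. The causes of these shifts were not tested. By single pairs, the ratio of ILF2 shRNA to non-silencing was 0.849 for PSMB8 to PSMB5, 1.215 for PSMB9 to PSMB6 and 1.096 for PSMB10 to PSMB7, against 1.015 for the sums.

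The sign of the fold change differed in 0 of 48 members under the other scalings, tools and filters, in 8 under the GC and length correction and in 5 to 12 when a library was left out.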
